A study of Mus musculus with 45 samples.

Results

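The mitochondrial ribosomal protein genes were taken as the rows of the count table with the biotype protein_coding and a name that starts with Mrpl or Mrps followed by a digit. This gave 78 of 55357 rows, or 78 of 21833 protein-coding rows, on 17 chromosomes. By name 49 are Mrpl and 29 are Mrps genes. By the place of the protein in the ribosome 51 belong to the large subunit, 26 to the small subunit and 1, Mrps36, to neither. Of the large-subunit proteins 30 have a bacterial counterpart and 21 are specific to mitochondria, against 16 and 10 of the small-subunit proteins.

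The mitochondrial ribosome makes the few proteins that mitochondrial DNA encodes, all of them subunits of the respiratory chain and ATP synthase. Its RNAs come from mitochondrial DNA, while all of its proteins are encoded in the nucleus, made in the cytosol and imported. A growing oocyte gathers mitochondria and messenger RNA in large amounts, and a fully grown oocyte transcribes little, so its RNA is a store set down earlier.

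Single mouse oocytes were sequenced, 1 per library, to ask how the age of the somatic cells around an oocyte bears on it. In the chimeric follicles an oocyte was moved into a follicle emptied of its own oocyte and was cultured there. AY held aged oocytes in young somatic cells (n = 6), AA aged oocytes in aged somatic cells (n = 12) and YY young oocytes in young somatic cells (n = 11). The in vitro young controls (n = 8) were cultured young oocytes, and the in vivo young controls (n = 8) were young oocytes that had not been cultured. The labels name no strain, age in months, animal or oocyte stage and no genetic change. AY, AA, YY and in vitro young share culture, and in vivo young does not. The labels call the libraries biological replicates without saying which oocytes came from 1 animal, so p-values measure the spread between oocytes.

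Library totals ranged from 418703 to 2201980 counts, and a member had a median of 51.5 counts per library. Levels are TMM-scaled CPM, which give a gene's share of its library, so the amount of RNA per oocyte was not measured. The library numbers of AY, AA, YY, in vitro young and in vivo young do not overlap. A difference between any of these groups thus cannot be told apart from one between runs of library numbers. YY holds 2 runs of numbers, S198 to S202 and S225 to S231. With 11 genes that were all-or-nothing across libraries (a gap of at least 3 on the log2 scale), the 45 libraries fell into 10 patterns. AA held 2 patterns (9 and 3 libraries) and AY 2 (2 and 4 libraries), none shared with another group. Whether a pattern marks an animal was not tested. The 10 oocyte markers summed to 20990–24790 unscaled CPM in AY, 17700–25310 in AA and 17100–23730 in YY. The 12 granulosa and cumulus markers summed to 874–1415 unscaled CPM in AY, 672–1308 in AA and 540.6–828.5 in YY, with most of it from Serpine2. Of these markers Amh was at 0 counts in every AY, AA and YY library and Foxl2 in 5 of 6, 11 of 12 and 11 of 11. Of the 6 that could be tested, 4 (Inha, Inhba, Gja1 and Serpine2) were higher in AA than in YY. This is 66.7%, against 27.5% of all genes tested. In AY against YY 3 of the 6 (Inha, Gja1 and Serpine2) were higher, or 50%, against 1.62% of all genes. The median log2 fold change of the 6 was 1.28 there. None was called in AY against AA, where 6.59% of all genes were. The part of these markers in the results below was not tested.

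Nearly all members were detected in every oocyte, and their levels spanned a wide range in nearly the same order in each group. Of the 78 members, 72 had at least 1 count in all 45 libraries. Per library 75.5 ± 0.548 members had a count in AY, 75.4 ± 0.669 in AA, 75.6 ± 0.809 in YY, 76 ± 0.756 in in vitro young and 75.5 ± 1.60 in in vivo young (mean ± SD). Over the 78 members, the order of the group means had a Spearman correlation of 0.994 between AY and AA, 0.996 between AA and YY, 0.995 between YY and in vitro young and 0.990 between in vitro young and in vivo young. These correlations are across genes that share libraries and describe the order of levels.

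Levels per kilobase of exon were used to compare members with each other. In in vivo young oocytes Mrpl18 had the highest mean, 151 ± 20.3 CPM per kb (SD, n = 8). Mrpl34 followed at 146 ± 32 CPM per kb, Mrpl14 at 141 ± 34.8 and Mrpl22 at 116 ± 24.7. Mrps33 had 110 ± 32.3 CPM per kb and Mrpl28 had 104 ± 8.14. The leading 3 lay within 1 SD of each other, and 5 of these 6 are large-subunit proteins with a bacterial counterpart, while Mrps33 belongs to the small subunit. The order depended on the length used. Per kilobase of the longest transcript Mrpl14 led at 207 CPM per kb, against 173 for Mrpl18. By that length 5 of the 6 stayed among the highest 6, with Mrpl9 (131 CPM per kb) in place of Mrpl28 (127). By class the medians per kilobase of exon in in vivo young were close. They were 23.0 CPM per kb for large-subunit proteins with a bacterial counterpart and 23.7 for those without. For the small subunit they were 19.5 CPM per kb with a counterpart and 26.8 without.

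At the low end, Mrpl53, a mitochondria-specific protein of the large subunit, had 0 counts in all 45 libraries, which allows up to 0.0715 unscaled CPM over all libraries (3 counts, counting error only). Mrps34, of the small subunit, had 0 counts in 37 libraries and at most 5 in any. Mrpl19 had 0 counts in 12 libraries, Mrpl43 in 10 and Mrpl23 in 3. Some exon bases were shared with other genes at both ends of the range, while the largest shares lay mostly in low rows. Of the 78 members, 33 shared some and 18 shared over 10%, among them Mrpl18 (10.1%) and Mrpl14 (11.2%) at the high end. Other genes covered 88.0% of the exon bases of Mrpl53, 77.8% of Mrps34, 36% of Mrpl19 and 33.4% of Mrpl43 (GENCODE M21). The 88.0% of Mrpl53 lay with Gm42688 on the same strand. Mrps25 shared 69.8% of its exon bases with Nr2c2, on the opposite strand, and averaged 47.4 CPM per kb in in vivo young. Mrpl23 shared none. Whether shared bases bear on the low levels was not tested. The sources used here do not say how reads in shared bases were counted, so the levels of rows with shared bases are uncertain. Another 6 rows are pseudogenes named after members and were not counted as members. Mrpl48-ps, Mrps36-ps1 and Mrpl23-ps1 had 5808, 4329 and 992 counts over the 45 libraries. Mrpl23 itself averaged only 3.67 counts per library. Mrpl48, Mrps36 and Mrpl23 are therefore reported as uncertain.

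**Figure D1:**
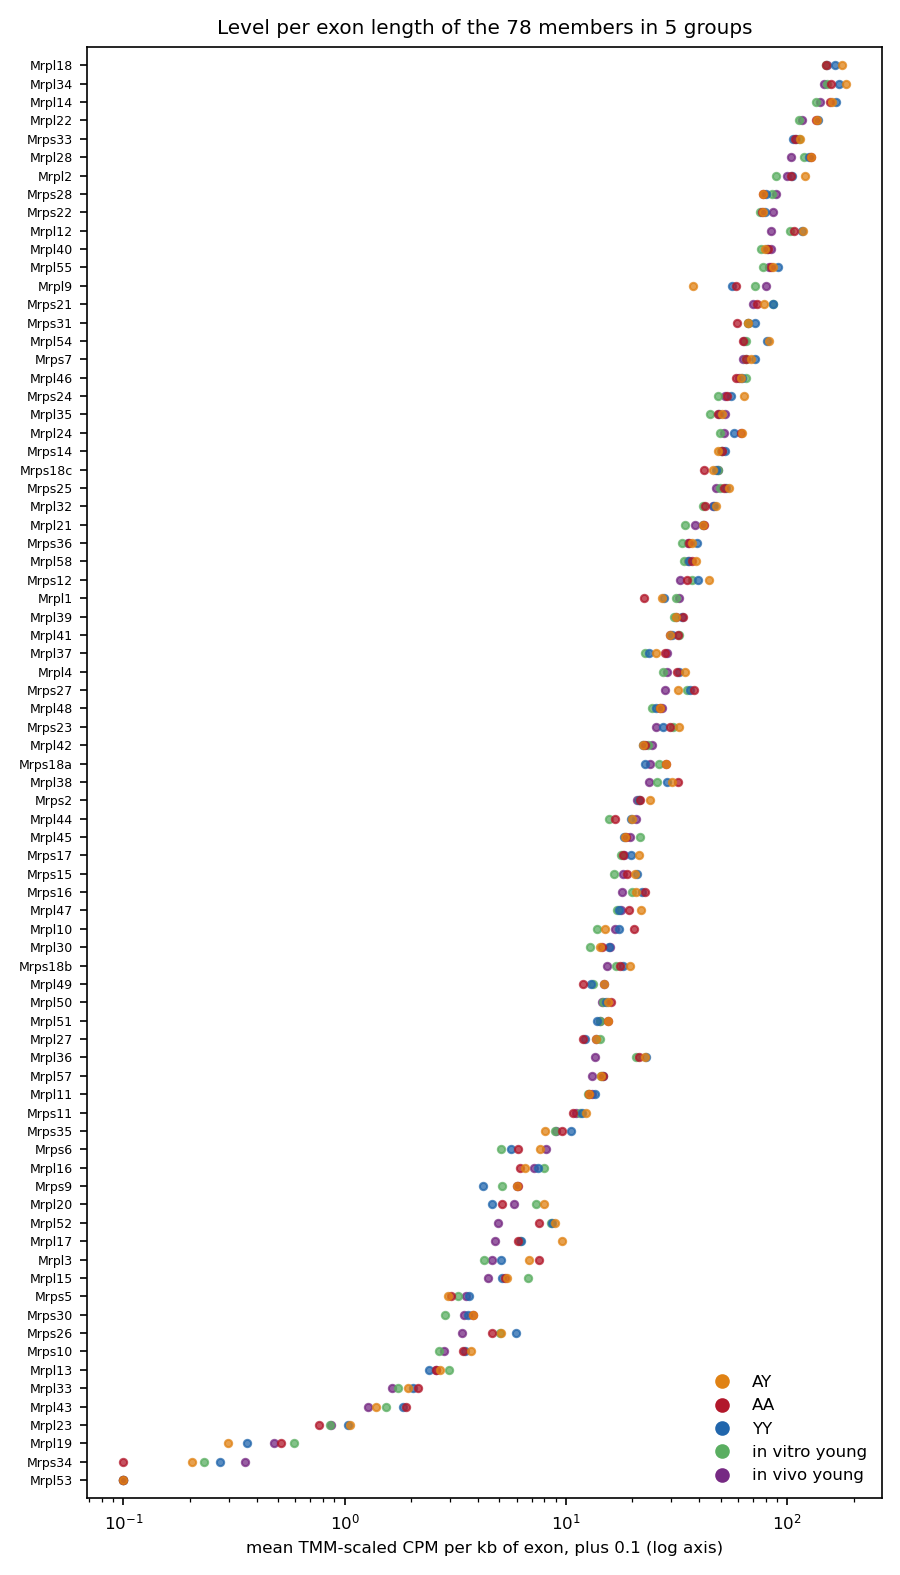
Mean level of each of the 78 members per kilobase of exon (x axis, CPM per kb plus 0.1, log scale) in AY, AA, YY, in vitro young and in vivo young oocytes, ordered by the in vivo young mean. The 5 points of a member mostly overlap from Mrpl18 (151 CPM per kb in vivo young) down to Mrpl53 (0 counts), and Mrpl9 is spread more widely than its neighbours.

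The summed level of the family differed little between groups. The 78 members together had a lowest, median and highest summed level of 5759, 6592 and 7022 CPM in AY. They had 5526, 6242 and 6875 CPM in AA and 5435, 6415 and 7063 CPM in YY. The ranges of AY, AA and YY overlapped, and each group's median lay inside the ranges of the other two. In vitro young oocytes had 5587, 5986 and 6761 CPM and in vivo young oocytes 5320, 6042 and 7657 CPM. Summed large-subunit over small-subunit level was 1.74 ± 0.0742 in AY, 1.77 ± 0.137 in AA and 1.69 ± 0.0736 in YY (SD). Within YY, the libraries S198 to S202 had 6021 ± 381 CPM (n = 5) and S225 to S231 had 6713 ± 285 CPM (n = 6), a difference wider than that between any 2 group means. The 13 protein-coding genes of mitochondrial DNA took 0.130 ± 0.0529% of counts in AY, 0.0654 ± 0.0255% in AA and 0.115 ± 0.0850% in YY. Against this the members took 0.658 ± 0.0454% in AY, 0.607 ± 0.0375% in AA and 0.664 ± 0.0597% in YY.

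**Figure D2:**
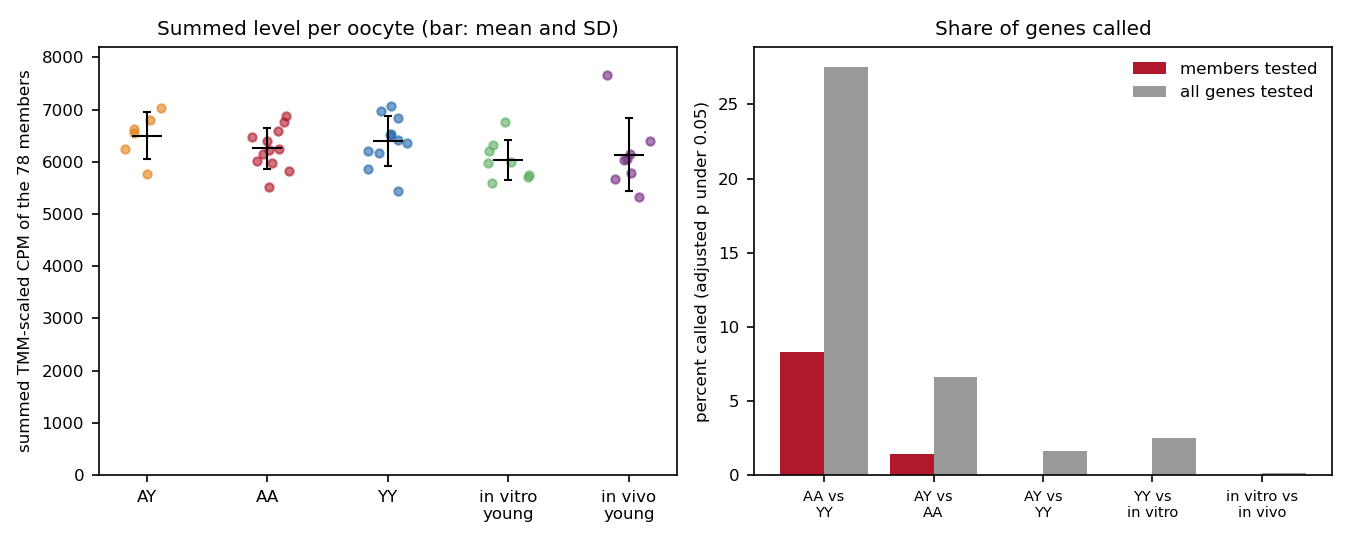
Left, summed CPM of the 78 members in each oocyte (points) with mean and SD (bars) for AY, AA, YY, in vitro young and in vivo young; right, percent of tested members (red) and of all tested genes (grey) called in each comparison. The summed levels overlap between all groups, and in AA against YY 8.33% of tested members were called, against 27.5% of all genes tested.

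AA against YY compares oocytes and somatic cells that are both aged with oocytes and somatic cells that are both young. Members changed little: 3 rose (Mrpl3, Mrps9 and Mrps18a) and 3 fell (Mrpl1, Mrps31 and Mrpl54), with log2 fold changes between -0.39 and 0.58. These are 6 of the 72 members that passed the filter on low counts, or 8.33%, where 27.5% of the 8533 genes tested were called (12.8% higher and 14.7% lower; edgeR's quasi-likelihood test, Benjamini-Hochberg adjusted p under 0.05). The 6 members that did not pass the filter were low in all groups. The median log2 fold change was -0.03 over the 72 members and -0.01 over all genes tested. No member passed a 1.5-fold change, which 1527 of the 8533 genes did. The 95% interval of the fold change lay within 2-fold for all 72 members tested and for 79.7% of all genes tested. It lay within 1.5-fold for 61 members, or 84.7%, and for 43.4% of all genes. The standard error of the log2 fold change had a median of 0.137 for the members and 0.176 for all genes.

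By subunit, 4 of 46 large-subunit members tested were called (Mrpl3 and Mrps18a higher, Mrpl1 and Mrpl54 lower). The same held for 2 of 25 in the small subunit (Mrps9 higher, Mrps31 lower). Their median log2 fold changes were -0.00431 and -0.0590.

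**Figure D3:**
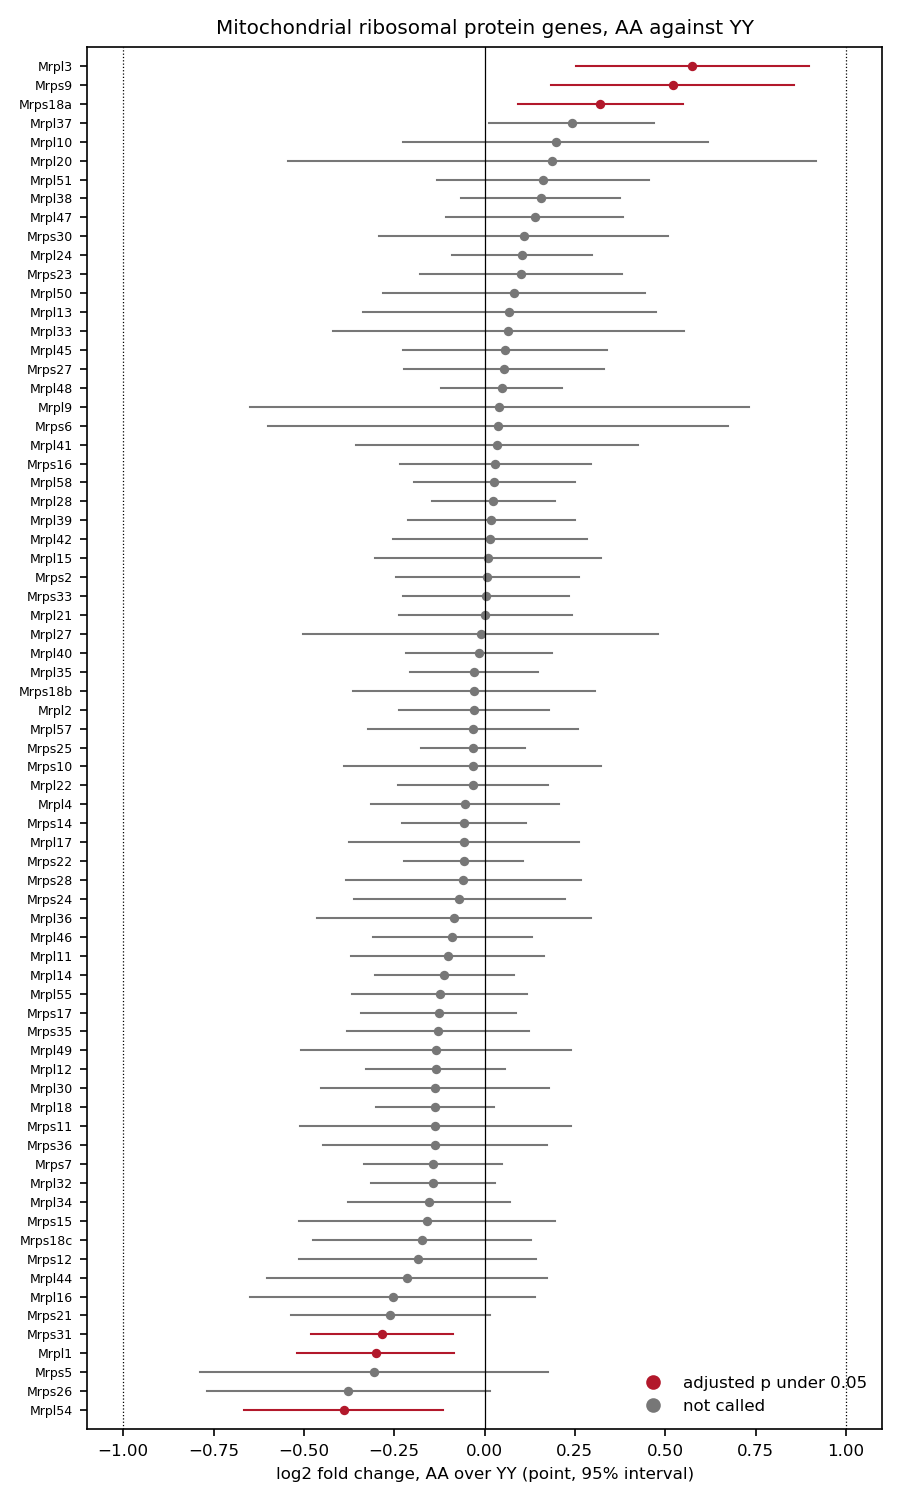
Log2 fold change of AA over YY (x axis, point) with its 95% interval (line) for each of the 72 members tested, in order of fold change; red marks an adjusted p under 0.05 and the dotted lines mark a 2-fold change. All 72 intervals lie between the dotted lines, from Mrpl54 at -0.39 to Mrpl3 at 0.58.

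Of the members that rose, Mrpl3, the large-subunit protein that reaches toward the peptidyl transferase centre, had a lowest, median and highest level of 33.5, 45.6 and 74.4 CPM in AA oocytes, against 18.4, 36.3 and 48.8 CPM in YY oocytes. The groups overlapped, with 10 of 12 AA oocytes above the YY median. Its log2 fold change was 0.58 ± 0.16 (SE; edgeR adjusted p = 0.00569). Mrps9, a small-subunit protein with a bacterial counterpart, had 20.5, 33.4 and 53.3 CPM in AA oocytes, against 17, 23.5 and 33.4 CPM in YY oocytes. Here 6 AA oocytes lay above every YY oocyte. The log2 fold change was 0.52 ± 0.17 (edgeR adjusted p = 0.0163). Mrps18a, named for the small subunit but part of the large one, had 78.6, 106 and 130 CPM in AA oocytes, against 63.0, 84.7 and 113 CPM in YY oocytes. The groups overlapped over most of their range. The change on the log2 scale was 0.32 ± 0.11 (edgeR adjusted p = 0.0301).

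Of the members that fell, Mrpl1, the protein of the mobile L1 stalk, had a lowest, median and highest level of 78.9, 97.4 and 116 CPM in AA oocytes, against 88.1, 118 and 144 CPM in YY oocytes. All 12 AA oocytes lay below the YY median. The log2 fold change was -0.30 ± 0.11 (edgeR adjusted p = 0.0326). Mrps31, a mitochondria-specific protein of the small subunit, had 144, 195 and 254 CPM in AA oocytes, against 166, 237 and 295 CPM in YY oocytes. The groups overlapped, and 2 AA oocytes lay below every YY oocyte. The log2 fold change was -0.28 ± 0.0975 (edgeR adjusted p = 0.0255). Mrpl54, a mitochondria-specific protein of the large subunit, had 32.5, 51.0 and 72.2 CPM in AA oocytes, against 34.2, 70.3 and 89.5 CPM in YY oocytes. All but 1 AA oocyte lay below the YY median. Its log2 fold change was -0.39 ± 0.14 (edgeR adjusted p = 0.0285), and with a correction for GC content and length it was -0.0458 (adjusted p = 0.848).

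Mrpl3 and Mrps9 were called with every single AA or YY library left out in turn. Mrps18a was lost (adjusted p 0.0512 to 0.0658, log2 fold change 0.282 to 0.302) without any one of YY replicates 2, 8 and 9 or AA replicates 2, 8, 9 and 12. Mrpl1 was lost (0.0517 to 0.0719, -0.268 to -0.284) without YY replicate 1, 3 or 10 or AA replicate 6. Mrps31 was lost without YY replicate 1 (0.0558, -0.248) or 6 (0.0564, -0.253). Mrpl54 was lost (0.0522 to 0.0564, -0.342 to -0.362) without YY replicate 4, 7 or 11.

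The calls depended on which YY oocytes were used and on the patterns. With the YY libraries S198 to S202 alone 0 of 71 members tested were called, where 5.43% of all genes tested were. With S225 to S231 alone 10 of 71 were (4 higher, 6 lower), where 38.1% of all genes were. The 6 fold changes kept their direction in both, with Mrpl3 at 0.55 and Mrpl1 at -0.31 against S198 to S202. With the pattern as a random block 0 members were called, where 12.7% of all genes were, and the log2 fold changes of the 6 stayed between -0.389 (Mrpl54) and 0.54 (Mrpl3). With the libraries of a pattern summed 0 members were called and 2 genes of 8533 in all, so that count says nothing of the members. Scaled by library totals alone, 2 were higher and 6 lower, and the median log2 fold change was -0.129 over the members and -0.105 over all genes tested. With the correction for GC content and length, 6 were higher and 3 lower. For library totals and this correction the share of all genes called is not given here. Their counts are thus not read as results about the members.

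**Figure D4:**
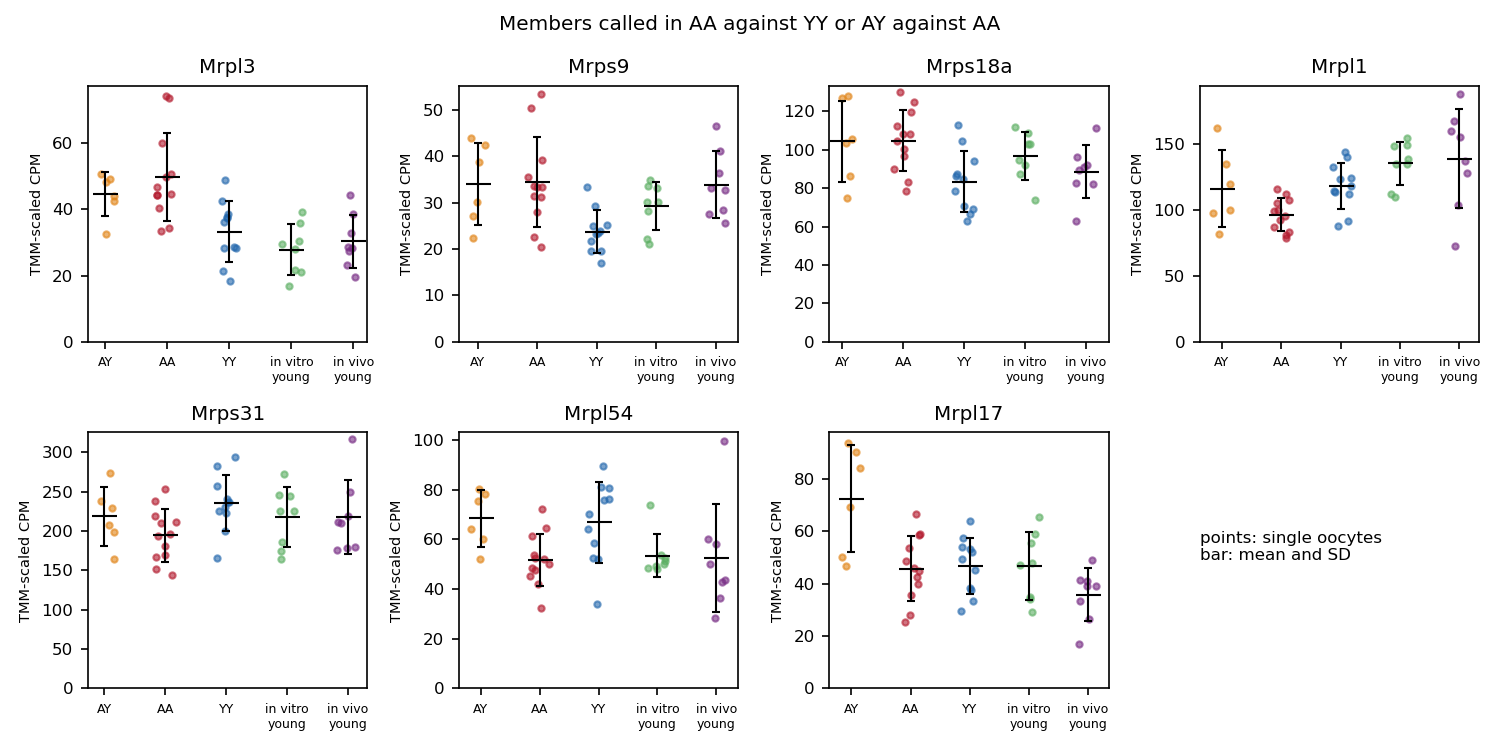
Level of the 7 members called in AA against YY or AY against AA in each oocyte (points, CPM) with mean and SD (bars) for AY, AA, YY, in vitro young and in vivo young. The groups overlap in every panel, and in Mrpl17 all 6 AY oocytes lie above the AA median of 45.5 CPM.

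AY against AA asks what young somatic cells change around an aged oocyte. Mrpl17, a large-subunit protein with a bacterial counterpart, was the member called, and it rose. It had 46.7, 76.7 and 93.8 CPM as lowest, median and highest in AY oocytes, against 25.4, 45.5 and 66.5 CPM in AA oocytes. All 6 AY oocytes lay above the AA median and 4 above every AA oocyte. Its log2 fold change was 0.67 ± 0.18 (SE; edgeR adjusted p = 0.0199). This is 1 of 72 members tested, or 1.39%, where 6.59% of all genes tested were called (3.52% higher and 3.07% lower). The call was lost without AY replicate 3 (log2 fold change 0.58, adjusted p = 0.0653) or AY replicate 5 (0.59, adjusted p = 0.0620), and with the pattern as a random block (0.61, adjusted p = 0.199), where 0.938% of all genes were called. The median log2 fold change was 0.07 over the members and 0.00159 over all genes. It was 0.0301 over the large-subunit and 0.121 over the small-subunit members.

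The members called in AA against YY are given here beside AY, with the caution that the comparisons share their AA and YY oocytes. The 3 that were higher in AA than in YY had AY means near those of AA. Mrpl3 averaged 44.5 ± 6.62 CPM in AY, 49.7 ± 13.4 in AA and 33.3 ± 9.16 in YY (SD). Mrps9 averaged 34.1 ± 8.85 CPM in AY, 34.4 ± 9.69 in AA and 23.8 ± 4.61 in YY. Mrps18a averaged 104 ± 21.3 CPM in AY, 105 ± 15.9 in AA and 83.4 ± 16.0 in YY. The 3 that were lower in AA than in YY had AY means above those of AA. Mrpl1 averaged 116 ± 29.3 CPM in AY, 96.5 ± 12.3 in AA and 118 ± 17.5 in YY. Mrps31 averaged 219 ± 37.5 CPM in AY, 195 ± 33.8 in AA and 236 ± 35.5 in YY. Mrpl54 averaged 68.5 ± 11.4 CPM in AY, 51.8 ± 10.54 in AA and 66.9 ± 16.4 in YY. None of the 6 passed the test in AY against AA or in AY against YY. Their lowest adjusted p (edgeR) was 0.106 in AY against AA (Mrpl54, log2 fold change 0.42) and 0.193 in AY against YY (Mrps9, 0.53).

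AY against YY compares aged with young oocytes, both in young somatic cells. No member was called of 72 tested, where 1.62% of all genes tested were (0.715% higher and 0.902% lower; edgeR). At an unadjusted p under 0.05 there were 6 members, or 8.33%, against 14.1% of all genes. DESeq2 and limma voom each called 1, Mrpl17, which was higher. The share of all genes each of these methods called is not given here, so these calls are not set against genes at large. Mrpl17 had 46.7, 76.7 and 93.8 CPM as lowest, median and highest in AY oocytes, against 29.7, 49.3 and 64.0 CPM in YY oocytes. The groups overlapped. Its log2 fold change was 0.61 ± 0.18 (edgeR adjusted p = 0.0777). Over the 72 members the median was 0.03, and over all genes -0.01.

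Placing a young oocyte in another young follicle, set against culture without that step, called no member. In YY against in vitro young 0 of 73 members tested were called, where 2.48% of 8749 genes were (0.777% higher and 1.7% lower; edgeR). At an unadjusted p under 0.05 there were 4 members (Mrpl2, Mrpl14 and Mrpl22 higher and Mrpl15 lower in YY), or 5.48%, against 16.6% of all genes, and DESeq2 called 0. The median log2 fold change was 0.09 over the members and 0.01 over all genes tested, and 53 of 73 members had a positive value, against 4554 of 8749 genes. The 2 runs of YY libraries differed here. The summed level was 6040 ± 383 CPM in in vitro young (SD), 6021 ± 381 in S198 to S202 and 6713 ± 285 in S225 to S231. Mrpl14 had 116, 157 and 201.3 CPM as lowest, median and highest in YY, against 105, 114 and 161 CPM in in vitro young. The ranges overlapped, and its log2 fold change was 0.31 ± 0.13 (edgeR adjusted p = 0.183). With the YY libraries S225 to S231 alone it was called. The share of all genes called in that setting is not given here, so this call is not read as a result about Mrpl14. Culture itself called no member either: in in vitro young against in vivo young 0 of 73 were called, where 0.137% of all genes were (0.126% higher and 0.0114% lower; edgeR). There 9 members, or 12.3%, had an unadjusted p under 0.05, against 9.65% of all genes. DESeq2 called 0 members, and the median log2 fold change was -0.01. Mrps6, a small-subunit protein at few counts, had the lowest log2 fold change, -0.69 (95% interval -1.37 to -0.00921, edgeR adjusted p = 0.508).

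Mrps30, Mrps18b, Mrps36 and Mrpl58 were called in none of the 5 comparisons. Mrps30, a large-subunit protein despite its name, had a log2 fold change of 0.11 ± 0.20 in AA against YY and of -0.00169 ± 0.23 in AY against AA. Mrps18b, a second relative of the bacterial S18 protein in the small subunit, had -0.03 ± 0.17 and 0.15 ± 0.20 in the same order. Mrps36, now known as a subunit of the 2-oxoglutarate dehydrogenase complex and not of the ribosome, had -0.14 ± 0.15 and 0.05 ± 0.18. Mrpl58, a peptidyl-tRNA hydrolase built into the large subunit that frees stalled chains, had 0.03 ± 0.11 and 0.08 ± 0.13.

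The spread between oocytes of a group was small for most members. The coefficient of variation within groups had a median of 0.202 over the 72 members tested in both fits, where counting alone would give 0.135. It was under 0.3 for 63 members. Mrpl20, Mrps6, Mrpl9, Mrpl52 and Mrps5 had the largest values among tested members, from 0.379 for Mrps5 to 0.553 for Mrpl20. Mrpl20, Mrps6 and Mrpl52 averaged between 5.37 and 13.1 CPM in every group, and their counting values were 0.346, 0.343 and 0.375. Mrpl9 was unlike them, with a within-group value of 0.441 where counting would give 0.0868.

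Mrpl9, a large-subunit protein with a bacterial counterpart (chromosome 3, 94350625 to 94358438 on mm39), varied widely inside the groups. In AY all 6 oocytes lay below 140 CPM, a line set after the values were seen, with a lowest, median and highest level of 88.9, 94 and 129.4 CPM. In AA 9 oocytes had 72.1 to 123 CPM and 3 had 321, 338 and 366 CPM. No AA oocyte lay between. In YY 6 oocytes had 38.2 to 109 CPM and 5 had 188 to 308. Each of the cultured and uncultured young groups held oocytes on both sides of the line. In in vitro young 2 had 75.5 and 95 CPM and 6 had 186 to 284. In in vivo young 2 had 110 and 114 CPM and 6 had 169 to 321. Over all 45 oocytes 25 lay between 38.2 and 129.4 CPM and the next was at 169 CPM, a gap of 0.38 on the log2 scale. The step across the line was widest in AA (123 to 321 CPM), and in in vivo young (114 to 169 CPM) it was about as large in CPM as the next step up (169 to 220 CPM).

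The levels of Mrpl9 fell largely along the patterns of all-or-nothing genes, which do not include Mrpl9. The 3 high AA oocytes were the 3 of 1 AA pattern and the 9 low ones were the 9 of the other. The 4 YY oocytes of 1 pattern had 188 to 308 CPM, while those of a pattern of 3 had 38.2 to 109. A pattern of 2 YY oocytes was the exception, with 108 and 254 CPM. In the pattern shared by 4 in vitro young and 4 in vivo young oocytes all 8 lay between 215 and 321 CPM. Differences between patterns within groups held 86.0% of the within-group variance of Mrpl9 on the log2 scale. Over the 72 members this share had a median of 25.9%, and the next highest was 59.1% for Mrpl34. Mrpl9 was singled out for its spread, so these values carry no test. Mrpl9 was called in no comparison. Its log2 fold change was 0.04 ± 0.34 in AA against YY, -0.65 ± 0.42 in AY against AA (edgeR adjusted p = 0.384) and -0.61 ± 0.43 in AY against YY (edgeR adjusted p = 0.555).

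**Figure D5:**
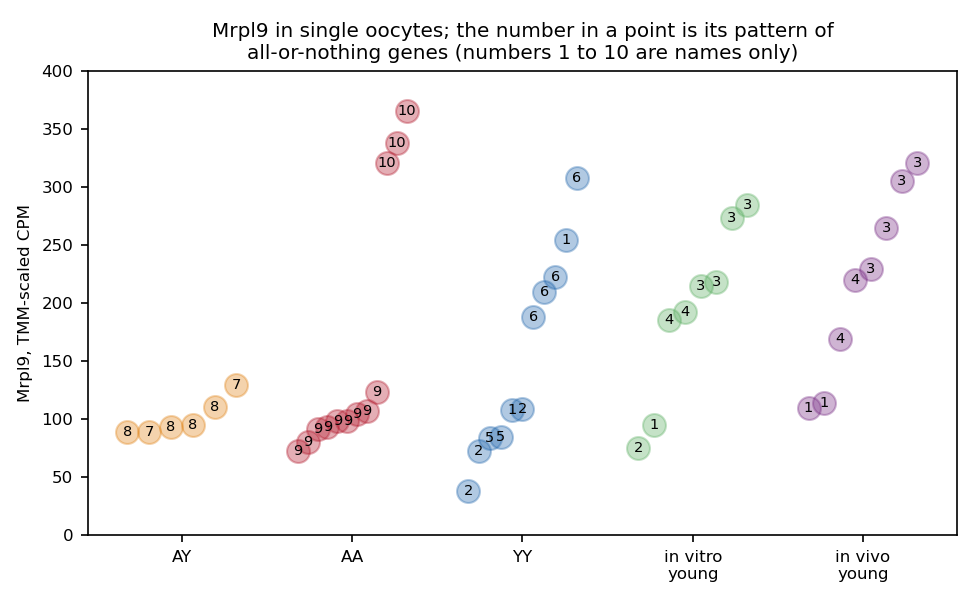
Level of Mrpl9 in each oocyte (y axis, CPM) in AY, AA, YY, in vitro young and in vivo young, sorted within a group; the number in a point names its pattern of all-or-nothing genes. The AA oocytes split into 9 at 72.1 to 123 CPM and 3 at 321 to 366 CPM that carry another pattern.

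The genes whose levels were most like those of Mrpl9 lay on other chromosomes. Over the 45 oocytes and 9911 genes, the genes with the most similar levels by Pearson correlation were Gm46401 (0.69), Slx4ip (0.66) and Cpne9 (0.62), and the most opposite were Tmem222 (-0.69) and Sugt1 (-0.63). These lie on chromosomes 13, 2, 6, 4 and 14. With group means removed Gm46401 had 0.73, Tmem222 had -0.68 and Sugt1, at 760 CPM on average, had -0.72. The other members ran from -0.46 to 0.42, with a median of -0.00636. Of its neighbours, Tdrkh, at 113 CPM on average, had -0.33 and Them4, at 5.04 CPM, had 0.42. Oaz3, which shares 5.81% of the exon bases of Mrpl9, averaged 1.14 CPM and was not compared. The values describe these 45 libraries, which share patterns. Pairs of members had low correlations in general, and pairs of other genes were not computed for comparison. The correlations were not corrected for counting error, which pulls them toward 0. Counting alone would give a median coefficient of variation of 0.135, against 0.202 within groups. Among 2556 pairs of members, with group means removed, the median correlation was 0.117 (5th to 95th percentile -0.19 to 0.43). Within a subunit it was 0.1098, and between subunits or with Mrps36 it was 0.121.

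The 150 bases before the start of the called members and of Mrpl9 are shown because these genes carry the differences above. They are the reference sequence of RefSeq on GRCm38.p6, read along the gene's strand, and capitals mark a match to one of 3 motifs searched on both strands in the 300 bases around each start. Mrpl54 had no entry.
Mrpl3 promoter, chr9:105053118-105053267, plus strand: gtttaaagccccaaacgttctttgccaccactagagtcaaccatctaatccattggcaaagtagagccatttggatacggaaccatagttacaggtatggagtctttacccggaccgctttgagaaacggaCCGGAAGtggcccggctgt
Mrps9 promoter, chr1:42851083-42851232, plus strand: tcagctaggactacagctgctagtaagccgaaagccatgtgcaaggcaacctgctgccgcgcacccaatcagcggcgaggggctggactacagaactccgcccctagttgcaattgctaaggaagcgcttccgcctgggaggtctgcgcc
Mrps18a promoter, chr17:46110854-46111003, plus strand: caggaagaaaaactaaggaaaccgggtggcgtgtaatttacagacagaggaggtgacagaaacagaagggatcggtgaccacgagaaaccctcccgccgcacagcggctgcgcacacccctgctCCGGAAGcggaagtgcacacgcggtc
Mrpl1 promoter, chr5:96209965-96210114, plus strand: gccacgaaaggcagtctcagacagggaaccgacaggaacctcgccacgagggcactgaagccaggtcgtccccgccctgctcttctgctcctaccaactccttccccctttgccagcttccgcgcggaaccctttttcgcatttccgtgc
Mrps31 promoter, chr8:22411190-22411339, plus strand: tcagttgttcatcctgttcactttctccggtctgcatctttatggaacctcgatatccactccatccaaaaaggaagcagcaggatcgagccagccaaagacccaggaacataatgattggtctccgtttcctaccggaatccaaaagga
Mrpl17 promoter, chr7:105811088-105811237, minus strand: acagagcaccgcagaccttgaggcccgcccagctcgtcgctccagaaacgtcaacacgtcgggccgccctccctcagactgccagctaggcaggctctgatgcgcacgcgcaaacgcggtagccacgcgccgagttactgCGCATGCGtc
Mrpl9 promoter, chr3:94443186-94443335, plus strand: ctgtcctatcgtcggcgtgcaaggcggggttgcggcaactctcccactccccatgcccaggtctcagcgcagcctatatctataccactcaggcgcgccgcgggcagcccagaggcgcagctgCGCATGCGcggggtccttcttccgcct
The motifs were CGCATGCG for NRF1, CCGGAAG for the ETS factors such as GABP, and AAGATGG for YY1, which in mammals are known regulators of nuclear genes for mitochondrial proteins. In the stretches shown, the capitals of Mrpl17 and Mrpl9 are NRF1 matches, and those of Mrpl3 and Mrps18a are ETS matches. In their full 300 bases Mrpl17 also held an ETS match and Mrps18a a YY1 match. Mrps9, Mrpl1 and Mrps31 held none of the 3 in their 300 bases. Of 69 members with an entry, 10.1% held NRF1, 37.7% ETS and 18.8% YY1 letters, and 55.1% held at least 1. Over 16797 protein-coding genes the shares were 2.88%, 13.2%, 7.22% and 21.3%. Over all 32851 promoters they were 1.87%, 8.86%, 6.34% and 15.9%. In the members' promoters no match shared bases with a match of another motif. A match is a description of letters and not a site.

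The mitochondrial ribosome also holds proteins under other names. In AA against YY 3 of 5 of them were called, or 60%, against 27.5% of all genes tested. Ptcd3, a pentatricopeptide repeat protein of the small subunit, rose: it had 37.9, 50.4 and 69.3 CPM as lowest, median and highest in AA, against 6.49, 23.5 and 48.3 CPM in YY, with a log2 fold change of 0.98 ± 0.19 (edgeR adjusted p = 0.000207). Aurkaip1, of the small subunit, rose by 0.31 ± 0.0987 on the log2 scale (edgeR adjusted p = 0.0168). Gadd45gip1, of the large subunit, fell by 0.46 ± 0.13 on that scale (edgeR adjusted p = 0.00825). Dap3 (-0.0126) and Chchd1 (-0.22), both of the small subunit, did not pass the test. In AY against AA none of the 5 was called, and Ptcd3 had -0.45 ± 0.23 (edgeR adjusted p = 0.234). In YY against in vitro young Gadd45gip1 rose by 0.77 ± 0.16 (edgeR adjusted p = 0.00456), where both comparisons use the same YY oocytes.

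Counting both directions, factors that work with the ribosome were called about as often as genes at large or less. In AA against YY 27.5% of all genes tested were called, 12.8% higher and 14.7% lower. Most calls in the lists below were higher, so 12.8% is the share to set beside the rises. The lists are short, and a difference from that share was not tested. Of mitochondrial translation factors 3 of 11 tested, or 27.3%, rose in AA against YY and none fell, with Gfm2 (log2 fold change 0.73 ± 0.18), a recycling factor, and Gfm1 (0.58 ± 0.13), an elongation factor, at the smallest p. Of ribosome assembly factors 3 of 17, or 17.6%, rose and none fell. Fastkd2, an RNA-binding protein, had 41.0, 72.7 and 99.4 CPM as lowest, median and highest in AA, against 18.6, 40.2 and 65.4 CPM in YY. This gave a log2 fold change of 0.87 ± 0.18 (edgeR adjusted p = 0.0003). Ddx28, a helicase, rose by 0.42 ± 0.0935. Of genes that express the mitochondrial genome 3 of 16 rose, with Fastkd3 (0.58) and Mtpap (0.34) at the smallest p, and 1 fell (Supv3l1, -0.54), or 25% in all. In AY against AA, where 6.59% of all genes were called, no translation or assembly factor was. In the genome expression list Elac2, the nuclease that trims transfer RNA ends, rose by 0.66 ± 0.20 (edgeR adjusted p = 0.0368) and Fastkd1 fell (-0.71 ± 0.19, edgeR adjusted p = 0.0203). Of the genes of mitochondrial DNA 8 could be tested. All 8 had a negative log2 fold change in AA against YY, with 3 called and a median of -0.81, and all 8 a positive one in AY against AA, with none called and a median of 1.00. These comparisons share the AA oocytes, so the opposite signs are not separate results. In AY against YY 6 of the 8 were positive and 2 negative, with none called and a median of 0.19.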

How the data were processed

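Levels and tests rest on the deposited table of whole-number read counts per gene, not normalized. The tools named are STAR 2.7.8a and HTSeq 0.11.0 with build mm39, per the submitters' processing notes; strand use and the handling of shared reads are not given in the sources used here. Per the labels' protocols, single oocytes were lysed and amplified with a low-input kit; reads carry no molecular identifiers, so intervals and floors cover counting error or the spread between libraries only.

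Library totals ranged from 418703 to 2201980 counts. Every pair of libraries within a group differed by more than counting noise (chi-square per degree of freedom at least 1.98). Tests used edgeR 4.0.16 in R 4.3.3: TMM, filterByExpr (minimum count 10, minimum total 15), robust quasi-likelihood fit, Benjamini-Hochberg over all genes tested, called at an adjusted p under 0.05. AY, AA and YY shared 1 fit (29 libraries, 8533 genes) and YY and the controls another (27 libraries, 8749 genes). Standard errors came from the F statistic. DESeq2 1.42.0 and limma 3.58.1 served as alternatives. Exon lengths came from GENCODE M21.

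Named were called members, the 6 highest and lowest per exon length, the 5 with the largest variation, those at 0 in many libraries, Mrps30, Mrps18a, Mrps18b, Mrps36, Mrpl58, and up to 2 called genes per list and direction. Mrpl2, Mrpl15, Mrpl48, Mrps25, Mrps35, pseudogenes and the genes set beside Mrpl9 were named after their values were seen, and the NRF1 core was shortened after a longer form had been counted. Members and lists were chosen with earlier results of these data known.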

Additional observations from a re-analysis of the deposited data

Results flagged for a closer look

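In 84 sets of a named member and group, and for the summed level, 11 values, from 6 oocytes, stood apart from the rest of their group by the gap to the nearest oocyte over the group's range. Chance flags about 1 in 20 such sets, and the sets share oocytes. In vivo young replicate 6 was the highest of its 8 oocytes for Mrpl18 (273.6 CPM, next 217.6), Mrpl22 (164.5, next 123.3), Mrpl54 (99.52, next 60.1) and Mrps33 (306.7, next 195.6), and for the summed level of the members (7657 CPM, next 6408). In vivo young replicate 5, the library with the fewest counts, had 0 CPM of Mrpl23 (next 3.278) and 24.17 CPM of Mrpl33 (next 12.27). In vivo young replicate 8 had 65.56 CPM of Mrps36 (next 50.9). In vitro young replicate 3 had 74.06 CPM of Mrpl54 (next 53.88) and in vitro young replicate 4 had 13.98 CPM of Mrps6 (next 8.586). AY replicate 4 had 1.858 CPM of Mrps6, from 1 count (next 11.4). AA and YY, with more than 10 oocytes each, were not examined this way.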

How the results depend on the processing

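In AA against YY, 6 members were called. The count was 3 (3 higher, 0 lower) with no filter on low counts, 0 with the YY libraries S198 to S202 alone, 10 with S225 to S231 alone, 0 with a random block for the pattern and 0 with summed patterns. It was 4 to 6 with single libraries left out. In AY against AA, 1 was called. The count was 0 with a replicate block, 0 with the pattern block, 0 with summed patterns, 2 with library totals alone, and 0 to 1 with single libraries left out. In AY against YY, 0 were called. The count was 1 with DESeq2, with limma voom and with the correction for GC content and length (Mrpl17 in each), 1 with S225 to S231 alone (Mrps35, lower), and 0 to 1 with single libraries left out (Mrpl17 without AY replicate 1 or YY replicate 10). In YY against in vitro young it was 1 with S225 to S231 alone. In in vitro young against in vivo young every setting run gave 0. Beside these, Mrpl1 and Mrpl54 were not called in AA against YY with all 45 libraries in the fit, nor Mrpl54 with limma voom, nor Mrpl1, Mrps31 and Mrpl54 without the filter. No fold change of a called member changed sign. Over the 5 comparisons the correlation of same-numbered oocytes had medians of -0.00599 to 0.0768. In none did every pair exceed 0.1: 2 of 11 pairs did in AA against YY, 2 of 6 in AY against YY and 4 of 8 in in vitro young against in vivo young, so the numbers were not taken to pair oocytes. At most 3 of 6 (AY against YY) correlated best with their own number. The replicate block called 5 in AA against YY, without Mrps18a. Library-total scaling and the GC and length correction were chosen after seeing the data. Where the share of all genes called under a setting is not given, its count is not set against genes at large. The causes were not tested.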
